A study of Mus musculus with 8 samples.

Results

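The nuclei described here were chosen from a cortical library of the wild-type (WT) mouse embryonic forebrain by how open their chromatin was at 5 genes of the cortical hem. Single-nucleus ATAC-seq, in which a transposase cuts accessible DNA and a droplet barcode marks the nucleus, was run on the cortex (CTX) and the medial, lateral and caudal ganglionic eminences (MGE, LGE and CGE), with 2 libraries per region. The labels give age E14.5 for CTX_E14.5 replicate 2, from which the nuclei were taken, and E12.5 for CTX_E12.5 replicate 1 and the 6 ganglionic eminence libraries. The 8 libraries held 39253 nuclei, and the sources do not say how many embryos were pooled. In the library labelled E14.5, 4801 of 4946 nuclei had at least 5000 counts in peaks. Each was scored by the share of its counts in the 44 peaks that overlapped the body or the 2 kb upstream of Wnt3a, Wnt9a, Wnt8b, Rspo1 or Lmx1a. The top 8%, 384 nuclei, are called hem-like nuclei here and were compared with the other 4417 nuclei.

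The cortical hem is the strip of neuroepithelium at the medial edge of the cortex, between the future hippocampus and the choroid plexus. It secretes Wnt and BMP proteins that pattern the neighbouring hippocampal primordium, and it is a source of Cajal-Retzius cells, the earliest neurons of the cortical surface. The transcription factor Lhx2, which specifies cortex, keeps hem identity out of the cortical neuroepithelium. Wnt3a, Wnt9a and Wnt8b encode Wnt ligands, Rspo1 encodes an R-spondin that amplifies Wnt reception, and Lmx1a is a transcription factor of the hem and the roof plate.

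The label was set beside genes that the score did not use, in lists chosen with earlier results of these data known. Most hem signals outside the rule were more accessible in the hem-like nuclei, with Bmp2 the lowest at 0.789. Of the cortical selectors, 2 of 7, Nr2f1 and Lhx2, were less accessible, while Nr2f2 was at 1.38. Most markers tested of the choroid plexus epithelium, which borders the hem, were also more accessible. Folr1 was the highest of all genes tested, while Ttr was at 0.815. The name hem-like therefore stands for the rule that chose the nuclei and does not separate hem from choroid plexus. All comparisons within the library are descriptions without a test, because the nuclei come from 1 library and are not replicates. Intervals of ratios are 95% exact binomial intervals on halved counts, since both ends of a fragment were counted, and they cover counting error only. Intervals of shares of nuclei are 95% exact binomial intervals on numbers of nuclei, and they treat the nuclei of 1 library as independent draws.

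Several facts of the libraries bear on these comparisons. The hem-like nuclei were shallower, with a median of 13136 counts against 16303 in the others. Members were 13.3%, 9.33%, 6.17% and 3.17% of the nuclei in 4 equal bins of depth, from the shallowest to the deepest. The part of depth in the choice was therefore examined with nuclei thinned to 5000 counts and with members taken within each bin. Peaks within 1 kb of a start site took 47.2% of member counts and 48.8% of the others' counts. Each other library shared 24 to 54 nuclear barcodes with this one, and 1 to 4 of the members' barcodes. Age, embryo, dissection and replicate number cannot be told apart between the 2 cortical libraries. Clusters in which glutamatergic neuron markers had a median ratio of at least 1.2 to the rest of their library held 38.8% of nuclei in the library labelled E12.5 and 16.7% in the one labelled E14.5, while at 1.5 they held 0 of 3870 and 602 of 4801 (both limits were chosen after the values were seen). A cluster with raised GABAergic markers held 2.87% of nuclei in the library labelled E12.5 at either limit, and none did in the other. The order of the 2 labelled ages was not settled by these markers, and the libraries are named by their labels.

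Regions that separated the hem-like nuclei most, outside 200 kb of the 5 genes, are shown first. The sequences are 300 bases around peak centres on the plus strand of GRCm38, the build of the peaks, with matches to TAATTA or CAGATG on either strand in capitals. TAATTA is a core bound by many homeodomain proteins, including LHX2 and EMX2, CAGATG is an E-box bound by basic helix-loop-helix factors, and CTTTGAT, searched as well, is a TCF/LEF core without a match in these windows. Among peaks outside these windows with an expected count of at least 50 in the members, the highest ratio was at chr7:7049477-7050451, intergenic and 53.8 kb from the start of Aurkc, and the intergenic peak chr2:170535332-170536726 lay 20.4 kb from Pfdn4. The Rspo2 window lies in an intron within the peak over that gene's start, chr15:43165859-43171311, and is shown because Rspo2 is a hem signal outside the rule. The intergenic peak chr12:39073133-39075132, 236 kb from Etv1, was among the 4 lowest.

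Aurkc side, chr7:7049815-7050114, higher: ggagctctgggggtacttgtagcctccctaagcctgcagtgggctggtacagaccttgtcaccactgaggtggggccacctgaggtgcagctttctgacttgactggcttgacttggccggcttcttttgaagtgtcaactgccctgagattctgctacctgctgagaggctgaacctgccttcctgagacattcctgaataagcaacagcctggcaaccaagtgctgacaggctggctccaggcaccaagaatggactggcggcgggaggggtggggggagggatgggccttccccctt
Pfdn4 side, chr2:170535880-170536179, higher: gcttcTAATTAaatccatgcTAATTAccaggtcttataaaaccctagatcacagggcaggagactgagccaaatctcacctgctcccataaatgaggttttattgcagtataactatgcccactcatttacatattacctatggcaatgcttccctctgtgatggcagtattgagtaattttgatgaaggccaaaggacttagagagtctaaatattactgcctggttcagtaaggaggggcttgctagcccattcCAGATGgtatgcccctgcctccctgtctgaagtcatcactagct
Rspo2 intron, chr15:43168436-43168735, higher: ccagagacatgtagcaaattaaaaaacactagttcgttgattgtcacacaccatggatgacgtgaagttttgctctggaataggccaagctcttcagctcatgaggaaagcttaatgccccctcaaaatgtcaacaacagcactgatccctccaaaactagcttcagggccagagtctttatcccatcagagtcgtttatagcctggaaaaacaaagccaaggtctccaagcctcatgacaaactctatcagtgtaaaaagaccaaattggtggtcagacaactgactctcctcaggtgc
Etv1 side, chr12:39073983-39074282, lower: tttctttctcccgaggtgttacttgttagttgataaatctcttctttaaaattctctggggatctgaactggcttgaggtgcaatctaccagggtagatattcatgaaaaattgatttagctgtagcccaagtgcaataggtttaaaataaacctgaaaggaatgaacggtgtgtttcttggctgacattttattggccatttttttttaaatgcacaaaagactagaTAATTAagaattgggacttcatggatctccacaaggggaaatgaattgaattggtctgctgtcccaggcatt

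The Aurkc-side peak held 61.5 CPM (counts scaled to a common total per group) in the hem-like nuclei and 6.48 CPM in the others, a ratio of 9.49 (interval 7.80 to 11.6). The Pfdn4-side peak held 73.5 against 9.97 CPM, a ratio of 7.37 (6.20 to 8.76). Both were several times more open in the nuclei that the 5 hem genes picked out, although the other nuclei, being far more numerous, held most of their counts. The Rspo2 peak held 78.2 against 28.9 CPM, a ratio of 2.70 (2.32 to 3.12). The Etv1-side peak had 2 counts in the hem-like nuclei, against 70.8 expected from their share of all counts, a ratio of 0.0266 with an interval of 0.000672 to 0.149. It had almost no counts in the hem-like nuclei, while part of the other nuclei had it open.

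The 5 genes that chose the nuclei gave the following levels, which are a description of the rule. Wnt3a (chr11:59248033-59290752, minus strand) held 209.8 CPM in the hem-like nuclei and 25.9 in the others, a ratio of 8.11. Its neighbour Wnt9a (chr11:59306928-59333552, plus strand) held 268.9 against 50.2 CPM, a ratio of 5.35. Rspo1 (chr4:124986430-125009099, plus strand) held 157.7 against 28.4 CPM, a ratio of 5.55. These 3 genes differed more than the other two. Lmx1a (chr1:167689237-167848741, plus strand) held 483.4 against 134.5 CPM, a ratio of 3.59, and Wnt8b (chr19:44493472-44514273, plus strand) held 501.2 against 190.4 CPM, a ratio of 2.63. Wnt8b is active across the medial cortical wall as well as in the hem, and its peaks covered 22.2 kb. With nuclei thinned to 5000 counts it had a count in 82.0% of members and 49.9% of the others (90.9% and 68.7% unthinned), and Lmx1a, over 31.6 kb, in 87.0% and 40.1% (94.8% and 62.2% unthinned).

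The score formed a continuous range without a gap at its threshold. Members had 0.162% of their counts in the 44 peaks and the others 0.0429%, and the median over all scored nuclei was 0.0408%. The last nucleus inside had 0.1184% and the next outside 0.1182%, and the tenth on either side had 0.1194% and 0.1173%. Scores rested on a median of 20 counts in members and 6 in the others. Thinned to 5000 counts, 81.0% of members (76.7 to 84.8) and 10.6% of the others (9.68 to 11.5) had a count at 3 or more of the 5 genes, where the unthinned shares were 92.7% and 32.7%. Wnt3a alone had a count in 53.4% of thinned members and 9.12% of the others, against 72.7% and 18.4% unthinned.

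Nuclei with a high score at 4 of the genes also had more counts at the fifth. Each gene was left out of the score in turn, 384 nuclei were chosen by the other 4, and the left-out gene was then compared. Wnt3a held 154.3 CPM in nuclei chosen without it and 29.2 in the rest, a ratio of 5.28 (4.71 to 5.89). The ratios of the other left-out genes were 3.61 for Wnt9a (3.28 to 3.96), 3.48 for Rspo1 (3.06 to 3.95), 2.31 for Lmx1a (2.15 to 2.47) and 1.78 for Wnt8b (1.66 to 1.90). In the other 7 libraries, treated the same way on their own peaks, the ratios ran from 0.583 to 1.48. The highest were Wnt3a at 1.48 and Rspo1 at 1.45, both in MGE_E12.5 replicate 1. Each value from the library labelled E14.5 lay above all 35 values from the other libraries. The full score rested on fewer counts there, with a median of 6 to 10 in the chosen nuclei from 17 to 36 peaks, against 20 from 44 peaks here. The part of this in the contrast was not tested. Wnt3a and Wnt9a lie next to each other on chromosome 11 and no peak counted for both, whereas Rspo1, Lmx1a and Wnt8b are on chromosomes 4, 1 and 19.

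**Figure D1:**
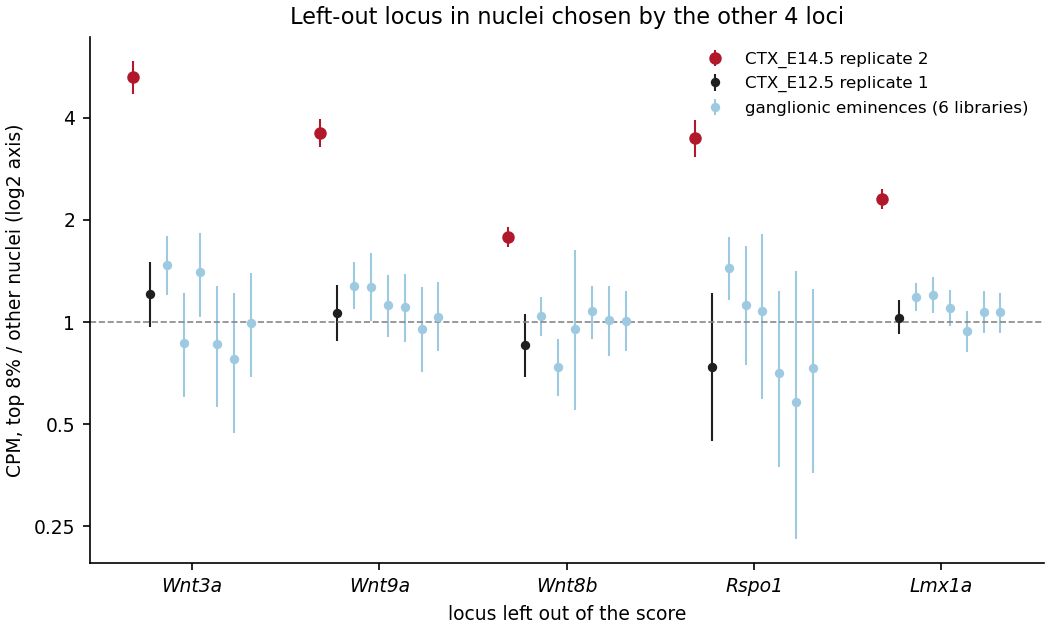
Ratio of CPM (log2 axis) at each left-out gene between the top 8% of nuclei by the other 4 genes and the remaining nuclei, with 95% counting intervals, in 8 libraries. The points of CTX_E14.5 replicate 2 lie between 1.78 and 5.28, above those of CTX_E12.5 replicate 1 and the 6 ganglionic eminence libraries, which lie between 0.583 and 1.48.

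This library also had more of its counts at the 5 genes than any other. The 44 peaks took 0.0501% of its counts, and the peaks found by the same rule took 0.0116% to 0.0230% in the other 7 libraries. Peaks were called per library, so these shares also depend on the 81.3 kb called here and on what was called elsewhere. Between the 2 cortical libraries Wnt8b had the widest gap in CPM, with 209.0 CPM over 22.2 kb of peaks here and 29.3 CPM over 6.59 kb in CTX_E12.5 replicate 1.

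Chromatin next to the 5 genes was more open too. Peaks within 10 kb of the genes that the score did not use had a ratio of 2.84 (2.58 to 3.12, 15 peaks), and those at 10 to 50 kb had 1.83 (1.72 to 1.93, 42 peaks). Beyond this the ratio was 1.097 (1.02 to 1.18) at 50 to 100 kb and 0.920 (0.874 to 0.969) at 100 to 200 kb. The summed difference was thus largest within the first 50 kb, and over the whole 200 kb it was 1.26 (1.23 to 1.31, 182 peaks). By gene, the flanks of Wnt3a (1.56), Wnt9a (1.46) and Rspo1 (1.38) differed more than those of Wnt8b (1.08) and Lmx1a (1.01). The flanks of Wnt3a and Wnt9a overlap and share most of their peaks. Within it, chr4:124964874-124966150, 20.9 kb upstream of Rspo1, stood at 4.95 (4.29 to 5.67). Some single peaks beyond 50 kb also had high ratios on few counts. Among them were chr11:59411864-59412499, 105 kb downstream of the start of Wnt9a, at 6.85 (4.23 to 10.8), chr11:59165379-59166247, 125 kb downstream of the start of Wnt3a, at 5.73 (3.85 to 8.60), and chr1:167608075-167608907, 80.7 kb upstream of Lmx1a, at 3.86 (2.67 to 5.62).

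**Figure D2:**
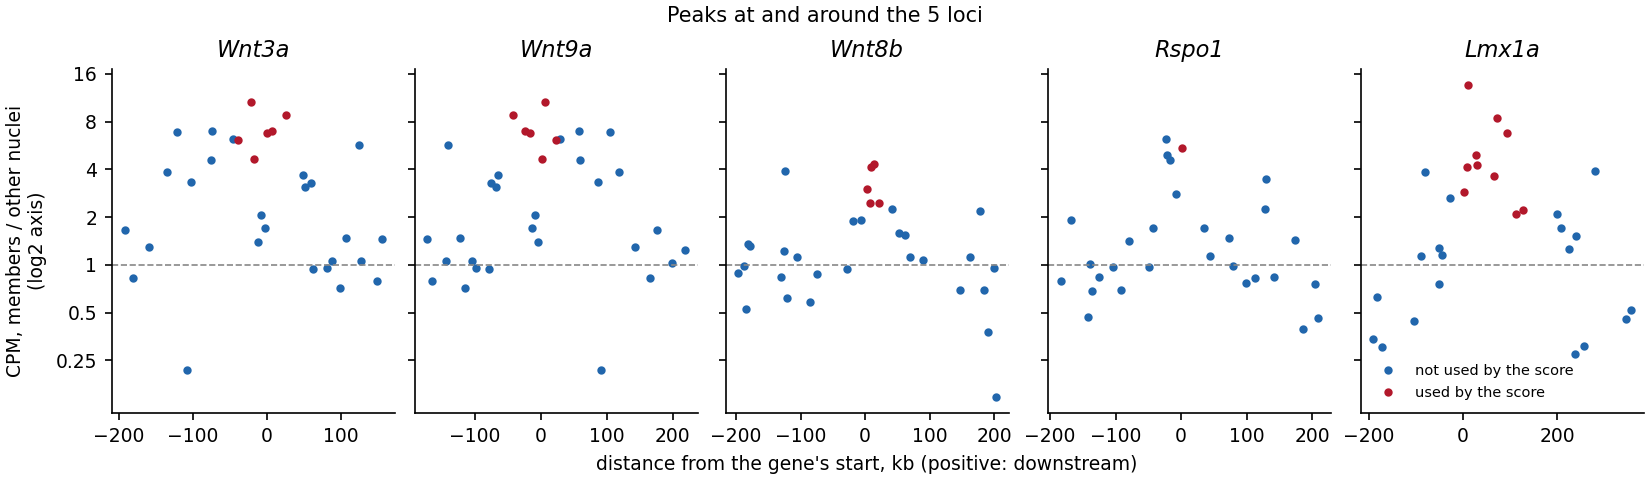
Ratio of CPM, members over other nuclei (log2 axis), of each peak with an expected count of at least 10 against its distance in kb from the start of the gene. Red peaks were used by the score and blue ones were not, and in the Rspo1 panel the blue points near the gene reach 4.95 and above while most distant ones lie around 1.

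Across the genome, 14394 protein-coding genes outside the windows had an expected count of at least 50 in the members. Of these, 524 (3.64%) were at least 1.5 times as accessible in the hem-like nuclei and 602 (4.18%) at most 1/1.5 as accessible, with a median ratio of 0.973. Nuclei chosen by the same rule in CTX_E12.5 replicate 1 differed from the rest there at 35 genes (0.235%) and 85 genes (0.572%) of 14863. In the 6 ganglionic eminence libraries 17 to 44 genes (0.114% to 0.309%) were higher and 65 to 125 lower. Of the higher genes, 478 had a value in CTX_E12.5 replicate 1, where their median ratio was 1.02 and 5 reached 1.5. The top nuclei of that library thus lacked these differences at most of the 478 genes.

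Most secreted signals of the hem outside the rule were more accessible. Of the 11, 7 reached 1.5 (background 3.64%), none was at 1/1.5 or below (background 4.18%), and the median ratio was 1.67, against 0.973 over all genes. The interval of the list's median log2 ratio, from its ranked genes, was -0.085 to 1.45 and included 0. The same list had a median of 0.993 in CTX_E12.5 replicate 1 and 0.986 to 1.09 in the ganglionic eminence libraries. Its summed level was 917.3 CPM in the hem-like nuclei and 527.8 in the others. Bmp6, a BMP ligand (chr13:38345107-38500302), held 146.9 against 43.4 CPM, a ratio of 3.39 (3.04 to 3.78) and the second highest among genes with an expected count of at least 100. Bmp4, a further BMP ligand of the dorsal midline, held 82.8 against 41.7 CPM, a ratio of 1.99 (1.72 to 2.28). Rspo2 (chr15:43020794-43170826), an R-spondin, held 96.2 against 35.2 CPM, a ratio of 2.73 (2.38 to 3.12), and Rspo3 had 1.57 (1.37 to 1.79).

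Fgf8, a growth factor of patterning centres at the telencephalic midline, held 34.4 against 14.98 CPM, a ratio of 2.29 (1.81 to 2.84). The Wnt ligands Wnt2b and Wnt5a, both hem transcripts, had 1.68 (1.27 to 2.20) and 1.67 (1.46 to 1.91). Wnt2b had 0.714 in the nuclei chosen from CTX_E12.5 replicate 1. Wnt7b was at 1.45 and Bmp7 at 1.41, under the fold with intervals above 1. Gdf7, a roof plate BMP, was at 0.943 (0.687 to 1.24) and Bmp2 at 0.789 (0.593 to 1.01), with intervals that include 1. Genes near the fold depended more on the processing. Rspo3 reached 1.5 in 10 of 16 alternatives and Wnt2b in 12 of 14, while Bmp6, Bmp4, Rspo2 and Wnt5a reached it in all 16 and Fgf8 in all 13 that gave a value.

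Among the other Wnt and R-spondin ligands, 15 of 19 passed the count minimum, 5 reached 1.5 (background 3.64%), 1 was at 1/1.5 or below (background 4.18%) and the median was 1.17. Of these 5, Wnt2b, Wnt5a, Rspo2 and Rspo3 are hem signals already counted above. Wnt4, a ligand of several signalling centres, is not among them and had 2.20 (1.69 to 2.85), and Wnt2 was lower at 0.594 (0.429 to 0.803). Counting only peaks at start sites, Wnt2 stood at 1.17, in the opposite direction. Wnt1, Wnt8a, Wnt9b and Rspo4 were under the minimum, and of them Wnt8a had 10.4 against 4.26 CPM.

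Genes that receive or limit Wnt signals gave no common direction. Of 28 receptors and modulators tested (of 30), 3 reached 1.5 (background 3.64%) and 1 was at 1/1.5 or below, a share near the background of 4.18%, with a median of 0.915. Dkk3, a Dickkopf family member, held 72.8 against 29.7 CPM, a ratio of 2.45 (2.10 to 2.85). The receptors Ror1, which binds Wnt5a, and Fzd3, a Frizzled, had 1.87 (1.69 to 2.07) and 1.60 (1.37 to 1.86), and neither reached 1.5 when only peaks at start sites were counted. Sfrp1, a secreted Wnt-binding protein of the cortical ventricular zone, was lower at 0.562 (0.493 to 0.638), and Wls, needed to secrete Wnts, stood at 1.39. None of the 13 feedback targets of Wnt signalling passed the fold in either direction, which few genes did at the background (3.64% higher and 4.18% lower). Their median was 1.098. Axin2, the common readout of the pathway, was at 1.28 (1.19 to 1.38), Nkd1 at 1.41 and Znrf3 at 1.32, whereas Lef1, a nuclear partner of beta-catenin that is high in the hippocampal primordium, was at 0.747 (0.685 to 0.812).

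Of the BMP pathway genes, 20 of 21 passed the minimum, 3 reached 1.5 (background 3.64%) and 1 was at 1/1.5 or below (background 4.18%), with a median of 1.04. Those that were higher were Id1 and Id3, transcriptional targets of BMP signalling, and Smad9, a receptor-activated SMAD. Id1 (chr2:152736251-152737410) held 156.4 against 60.6 CPM, a ratio of 2.58 (2.32 to 2.86), and Id3 held 119.0 against 65.6 CPM, a ratio of 1.81 (1.61 to 2.04). Smad9 had 1.54 (1.246 to 1.91) and reached the fold in 7 of 15 alternatives. Smad6, an inhibitory SMAD, was at 1.48 (1.39 to 1.58), and Bmpr1b, a type I receptor, was lower at 0.594 (0.534 to 0.661). Bmpr1b passed the fold in 13 of 16 alternatives, and not when thinned to 5000 counts.

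Transcription factors of the hem and roof plate had a median of 1.24, with 4 of 14 at 1.5 or more (background 3.64%) and 1 at 1/1.5 or below (background 4.18%). Lhx5, a LIM homeodomain factor of the hem and of Cajal-Retzius cells, held 58.9 against 29.2 CPM, a ratio of 2.01 (1.69 to 2.37). Msx2, a homeodomain factor of the dorsal midline, had 1.80 (1.59 to 2.03). Zic4 and Zic1, a divergent pair of zinc finger factor genes that shares peaks and cannot be separated, had 1.63 and 1.52, and Zic1 reached 1.5 in 10 of 16 alternatives. Msx1 (1.24), Lmx1b (1.24) and Otx2 (1.38) were under the fold with intervals above 1. Dmrta1, a factor of the cortical neuroepithelium, was lower at 0.571 (0.490 to 0.665).

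Some genes that specify cortex were less accessible. The 7 cortical selectors had a median of 0.866, with 2 at 1/1.5 or below (background 4.18%) and none at 1.5 or above (background 3.64%). Nr2f1, an areal patterning receptor, held 117.7 CPM in the hem-like nuclei and 241.5 in the others, a ratio of 0.487 (0.435 to 0.545), and Lhx2 held 225.4 against 375.1 CPM, a ratio of 0.601 (0.553 to 0.652). Nr2f1 passed the fold in all 16 alternatives and Lhx2 in 12. Lhx2 did not pass it with nuclei thinned to 5000 counts or with members taken within bins of depth. Its highest value over the alternatives was 0.685. Pax6, highest in the lateral cortex, was at 0.732, Emx2, highest medially, at 0.866 and Emx1 at 0.916. Nr2f2, the related receptor, went the other way at 1.38 (1.24 to 1.53). In CTX_E12.5 replicate 1 the list's median was 1.04.

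Genes of the antihem, the signalling centre at the opposite, lateral edge of the cortex, had a median of 0.758, with 3 of 8 at 1/1.5 or below (background 4.18%). Dbx1, a homeodomain factor, had 0.506 (0.416 to 0.611), Tgfa, an EGF family ligand, 0.558 (0.441 to 0.696), and Nrg1, a neuregulin, 0.594 (0.545 to 0.647). Dbx1 passed the fold in all 16 alternatives. Tgfa passed it in 14, but not when thinned or within bins of depth, and Nrg1 in 15, but not when thinned. Sfrp2, a secreted Wnt antagonist of the antihem, was at 0.868 (0.738 to 1.02), and Fgf7, a fibroblast growth factor, at 1.13 (0.7625 to 1.62). The 12 genes of the medial pallium and hippocampus, which lie next to the hem, had a median of 0.948. None was past the fold, which few genes of any list would be at the background (3.64% higher and 4.18% lower). Zbtb20 was at 1.21, Dmrt3 at 1.22, Lhx9 at 0.946 and Wif1 at 0.727.

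**Figure D3:**
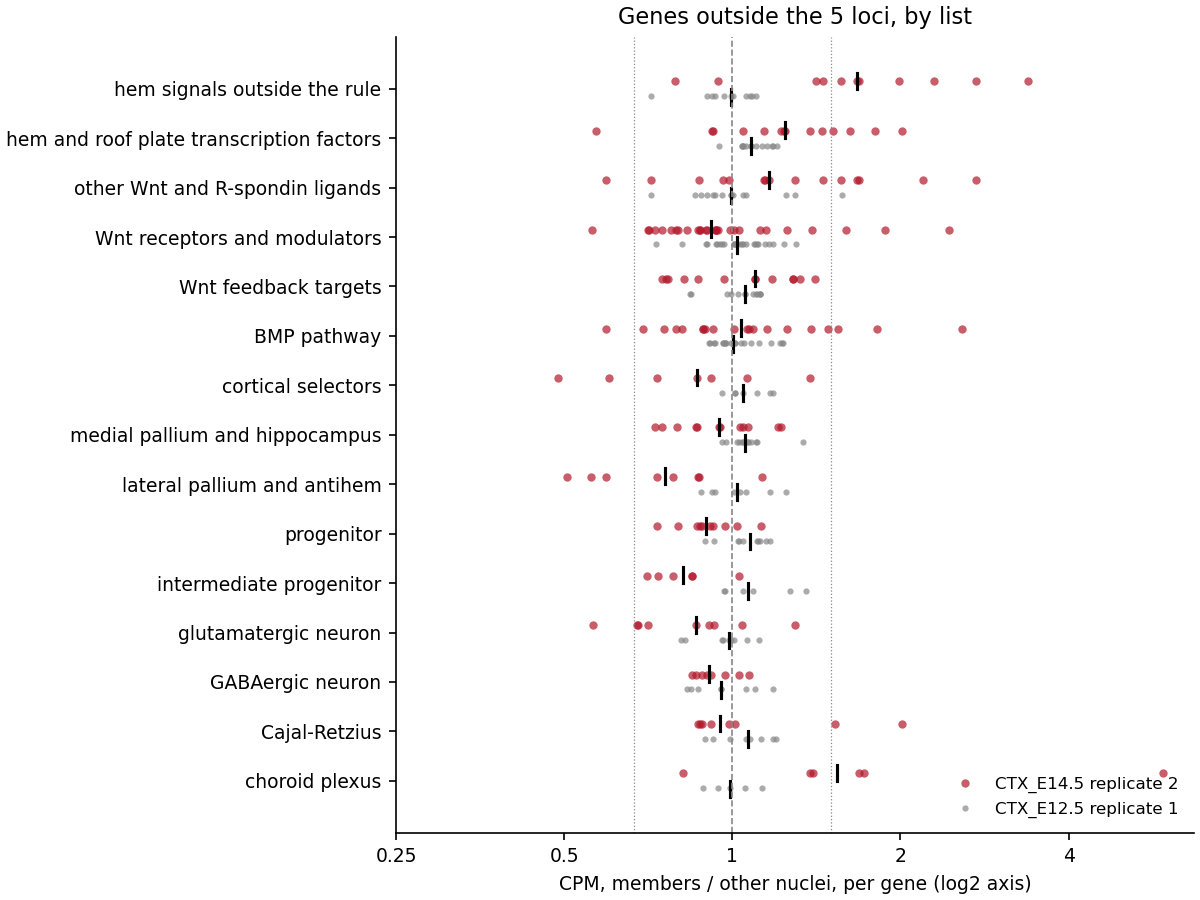
Ratio of CPM, members over other nuclei, for each gene of each list (log2 axis), with a black bar at the list's median. Red points are CTX_E14.5 replicate 2, grey points are nuclei chosen by the same rule in CTX_E12.5 replicate 1, and dotted lines mark 1.5 and 1/1.5. Hem signals (median 1.67) lie to the right and cortical selectors (0.866) and antihem genes (0.758) to the left, whereas the grey medians stay near 1.

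Markers of other cell types were read in the same way. The choroid plexus list had a median of 1.54 over 6 of its 8 genes, with 3 at 1.5 or more (background 3.64%) and a summed level of 405.7 against 249.3 CPM. Folr1, a folate receptor of the choroid epithelium, held 51.1 against 8.63 CPM, a ratio of 5.91 (4.84 to 7.24) that was the highest of the 14394 genes tested, over peaks it shares with Anapc15 and Folr2. The expected count includes the members' own counts, which helped Folr1 past the minimum, so its rank is a description. The water channel Aqp1 had 1.72 and the channel Clic6 1.68, and Calml4 and Kcnj13, under the minimum, had 4.08 (2.90 to 5.53) and 2.75 (1.62 to 4.44). Ttr, the transport protein most abundant in mature choroid epithelium, did not share this and stood at 0.815 (0.607 to 1.09). Otx2, counted in this list and among the roof plate factors, had 1.38. The part of choroid plexus nuclei in the values above was not tested.

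Cajal-Retzius markers had a median of 0.9496, with Lhx5 (2.01) and Reln, the secreted protein of these cells, at 1.52 (1.38 to 1.68). Trp73, a marker found in those born in the hem but not in them alone, was at 0.985 (0.837 to 1.15). Reln reached 1.5 in 10 of 16 alternatives. Progenitor markers had a median of 0.897 with none of 10 past the fold (background 3.64% higher and 4.18% lower), intermediate progenitors 0.816 and GABAergic neurons 0.9085. Glutamatergic neuron markers had 0.861, with Neurod6 lower at 0.563. Endothelial, mural, microglial and erythroid lists had medians of 1.097, 0.954, 1.02 and 0.932 over 5 of 7, 6 of 8, 4 of 6 and 2 of 6 genes. None of these passed the fold, which few genes of any kind did at the background shares above, and Gata1, Hba-a1 and Hbb-bs had no count.

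Genes chosen only by size, with an expected count of at least 100, gave a mixed set. After Sytl3 at 5.34 (4.71 to 6.02), which shares peaks with the cytoskeletal linker Ezr (3.04), and Bmp6 at 3.39 came Stx3, a membrane fusion protein, at 3.15, Gm28035, which shares peaks with Lrrc8a and Phyhd1, at 3.05, the matrix protein gene Prelp at 3.05 and the tight junction gene Cldn19 at 3.04. Rspo2 (2.73), Fam163a (2.72), Emc2 (2.67), Fmo1 (2.65) and Fgf17 (2.60, sharing peaks with Dmtn) completed the 12 highest. Of these 12, Fmo1 also exceeded 1.5 in CTX_E12.5 replicate 1, at 1.56, and in 3 ganglionic eminence libraries, at 1.64 to 1.73, and Fgf17 had no value in that cortical library. Emc2 stood at 1.245 when only peaks at start sites were counted. The 8 lowest were Aldh1a1, a retinoic acid synthesis enzyme, at 0.232 (0.131 to 0.406), Gm5136 (0.248, sharing peaks with Syt1), Slc6a16 (0.269), Acss1 (0.281), Bank1 (0.327), Cyp11a1 (0.330), Stmn4 (0.355) and the progenitor factor Sox1. Sox1 held 49.0 against 135.0 CPM, a ratio of 0.363 (0.303 to 0.432).

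Most differing regions lay away from start sites. Of 25394 peaks with an expected count of at least 50 outside the windows, 2140 (8.43%) were at least 1.5 times as accessible and 4997 (19.7%) at most 1/1.5 as accessible. Peaks within 1 kb of a start site were 50.5% of those tested, 16.6% of the higher and 16.2% of the lower ones. Besides the Aurkc-side and Pfdn4-side peaks, the 8 highest were chr10:30091119-30093209 (9.22, intergenic, 107 kb from Cenpw), chr15:43506542-43508763 in Emc2 (7.37), chr14:23378024-23379111 in an intron of Kcnma1 (7.35), chr17:6745514-6748147 in Ezr (7.28), chr11:109068036-109069704 (7.27, intergenic) and chr7:101868143-101869683 at the start of Folr1 (7.01). The peak in Emc2 accounts for 492 of that gene's 914 member counts. The members' own counts helped these peaks past the minimum, and the Aurkc-side peak, at 52.7 expected, was close to it. Also among the 4 lowest were chr9:61221972-61223093, with 1 count in the members against 50.5 expected (0.0186, interval 0 to 0.138), and chr5:133675448-133677478, with 2 counts against 52.6 expected (0.0358, 0.000903 to 0.200).

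TAATTA, present on the Pfdn4-side and Etv1-side windows printed above, was more frequent among regions less accessible in the hem-like nuclei. Of peaks over 1 kb from a start site, 29.3% of the lower windows (1228 of 4188) held it, 16.5% of the higher ones (295 of 1785) and 20.7% of all tested (2603 of 12564). Their median GC contents were 44.7%, 48.7% and 47.3%, so windows with more TAATTA were also richer in A and T. CAGATG was in 22.8%, 19.6% and 21.5% of these windows, and CTTTGAT in 7.59%, 5.83% and 6.37%. A match is a run of letters and was not tied to binding.

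The deposited motif counts per nucleus varied less than single genes. Over 579 motifs the ratios of the hem-like nuclei ran from 0.841 to 1.22, with 12 at 1.1 or more and 22 at 0.9 or less, where nuclei chosen from CTX_E12.5 replicate 1 ran from 0.928 to 1.08. The highest motif ratio was 1.06 to 1.35 in the 6 ganglionic eminence libraries, and 3 of them exceeded 1.22, while their lowest was 0.905 to 0.9503. Thinned to 5000 counts, 4 motifs were at 1.1 or more and 2 at 0.9 or less, and with members taken within bins of depth 6 and 7 were. The lowest included homeodomain motifs, among them EMX2 and LHX6 (both 0.860) and EVX2 (0.856), beside ATF4 (0.841), BATF3 (0.858), JUN (0.873) and Hoxa11 (0.873). From the motif list, of which 39 of 40 were present, LHX2 had 0.902, LHX9 0.931, and MSX1 and MSX2, which have identical counts, 0.915. EMX2, LHX2 and LHX9 were each above 0.98 in all other libraries. The highest included ESRRB (1.22), Crx (1.16), TFAP4 (1.13), TGIF1 (1.12), GSC (1.12), Rfx1 (1.11) and RARA(var.2) (1.11). Listed motifs on that side were SMAD2::SMAD3::SMAD4 (1.09), RFX3 (1.08), TEAD1 (1.08), OTX2 (1.06) and LMX1A (1.03), while LEF1 (0.988) and TCF7L2 (0.969), the factors downstream of Wnt, were near 1. Motifs of a family share sites, so these values are not separate observations.

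Clustering on 98338 peaks, without any within 200 kb of the 5 genes, put most hem-like nuclei together. Of 8 clusters, cluster 3 (615 nuclei) held 307 of the 384, or 79.9% (75.6 to 83.8), and they made up 49.9% of it. The share in the other 7 clusters was 7.04% or less. Cluster 2 held 38 members of 768 nuclei, cluster 0 held 18 of 1477, and cluster 6, where Cajal-Retzius markers were raised (list median 2.03), held 14 of 199. Cluster 7, with raised endothelial and erythroid markers, held 0 of 134, with an exact binomial upper bound of 2.72%. At a finer resolution the leading cluster held 61.2% of members, and with 15 components 79.9%. In CTX_E12.5 replicate 1 no cluster held over 25.5% of the nuclei chosen there. Among the 10 leading genes of cluster 3 were Bhmt (12.1), Wnt3a (7.83), Folr1 (7.56), Sytl3 (7.51) and Calml4 (6.63). Over the rest of the library, the choroid plexus list had a median of 1.83 in cluster 3 and the hem signals outside the rule 1.60. Wnt3a is a gene of the rule and members made up 49.9% of the cluster, so its place among the leading genes follows in part from the rule. With 2 choroid plexus markers among the leading genes beside raised hem signals outside the rule, the cluster is given no cell type name.

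**Figure D4:**
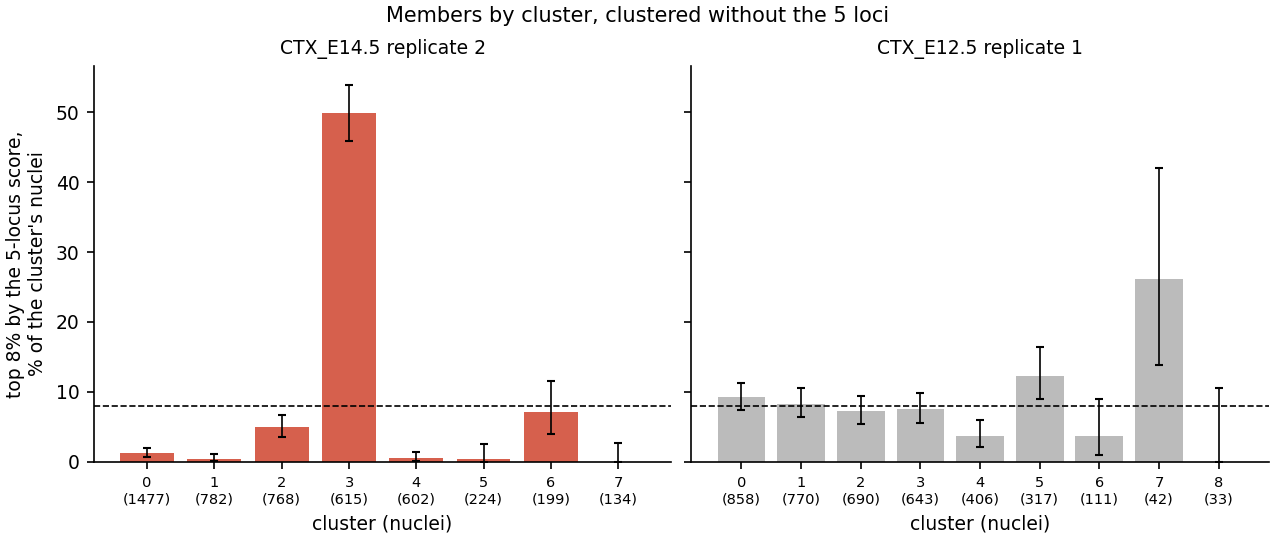
Share of each cluster's nuclei that are in the top 8% by the 5-gene score (bars, with 95% exact binomial intervals), for clusters made without the 5 genes in both cortical libraries. Numbers in brackets are nuclei and the dashed line marks 8%. In CTX_E14.5 replicate 2 cluster 3 reaches 49.9%, and the highest in CTX_E12.5 replicate 1 is a cluster of 42 nuclei at 26.2%.

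The cluster and the score did not pick the same nuclei. Compared with the 4109 nuclei outside both, the 307 members in cluster 3 had a median of 1.80 over the hem signals, the 308 cluster nuclei that were not members 1.52, and the 77 members outside it 1.26. Bmp6 stood at 4.49 (3.98 to 5.04), 4.00 (3.57 to 4.48) and 2.17 (1.52 to 2.93) in these groups, and Rspo2 at 3.30, 2.49 and 1.69. The members outside the cluster thus carried the values of the rule, with a median of 3.52 over the 5 genes against 6.54 inside, and smaller differences over the hem signals. Cajal-Retzius markers went the other way, with a median of 1.202 in the members outside the cluster and 0.845 in those inside. In cluster nuclei below the threshold the Bmp6 ratio was nearer to that of the members inside the cluster, and the Rspo2 ratio lay between those of the other two groups. Folr1 was at 9.11, 6.85 and 4.03. The choroid plexus list had medians of 1.84, 1.85 and 1.30 in the same order, the last over 5 genes. Median depths were 13248, 15292 and 13055 counts.

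Cluster 3 was split once more, after its composition had been seen, and gave sub-cluster 1 (341 nuclei, 166 members, median depth 16393) and sub-cluster 2 (274 nuclei, 141 members, median depth 11747). Members took a like share of both, 48.7% (43.3 to 54.1) and 51.5% (45.4 to 57.5), and Wnt3a differed by 1.095 (0.947 to 1.27) between them. Other genes of the rule differed more, with Lmx1a at 1.28 (1.165 to 1.41) in sub-cluster 2 relative to sub-cluster 1. In sub-cluster 1 relative to sub-cluster 2, Wnt9a was at 0.870 (0.765 to 0.990), Wnt8b at 1.11 (1.001 to 1.23) and Rspo1 at 1.094 (0.917 to 1.315). Several progenitor markers differed between them, with a list median of 0.968 of the level outside the cluster in sub-cluster 1 and 0.696 in sub-cluster 2. Sub-cluster 2 had 0.619 of the level of sub-cluster 1 at Hes5, a Notch target, and 0.698 at Sox2, whereas Pax6 was at 0.966 (0.844 to 1.104) and the glial progenitor gene Slc1a3 at 0.935 (0.747 to 1.165). The intermediate progenitor list had medians of 0.822 in sub-cluster 1 and 0.598 in sub-cluster 2 over the nuclei outside the cluster. In sub-cluster 2 relative to sub-cluster 1, Neurog2 was at 0.428 (0.342 to 0.535) and Insm1 at 0.631 (0.431 to 0.899). Btg2 at 1.19 (0.923 to 1.51) and Eomes at 1.09 (0.823 to 1.44) had intervals that include 1, as did Gadd45g. Neurog1 was at 1.64 (1.07 to 2.56) in sub-cluster 1 relative to sub-cluster 2. Lhx2 in sub-cluster 2 was at 0.616 of the level of sub-cluster 1. Hem signals outside the rule had like medians over the nuclei outside the cluster, 1.64 in sub-cluster 1 and 1.62 in sub-cluster 2, but single members differed. In sub-cluster 2 relative to sub-cluster 1, Wnt5a stood at 0.781 (0.629 to 0.978), Bmp4 at 1.41 (1.16 to 1.73) and Rspo3 at 1.37 (1.14 to 1.67), while the intervals of Wnt2b (0.471 to 1.16) and of the roof plate factor Msx2 (0.744 to 1.079) include 1. Higher in sub-cluster 2 were Fgf8 at 2.33 (1.71 to 3.23), Msx1 at 1.70 (1.42 to 2.04), Lmx1b at 1.57, Lhx5 at 1.56 and Bmp6 at 1.54 (1.33 to 1.78), as were the choroid plexus genes Calml4 at 3.18 (2.10 to 4.75), Clic6 at 1.89 and Folr1 at 1.69. Ttr was lower, at 0.499 (0.288 to 0.827), as were Dkk3 at 0.491 and Dmrta1 at 0.562. These genes helped to form the sub-clusters, so their differences describe the split.

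**Figure D5:**
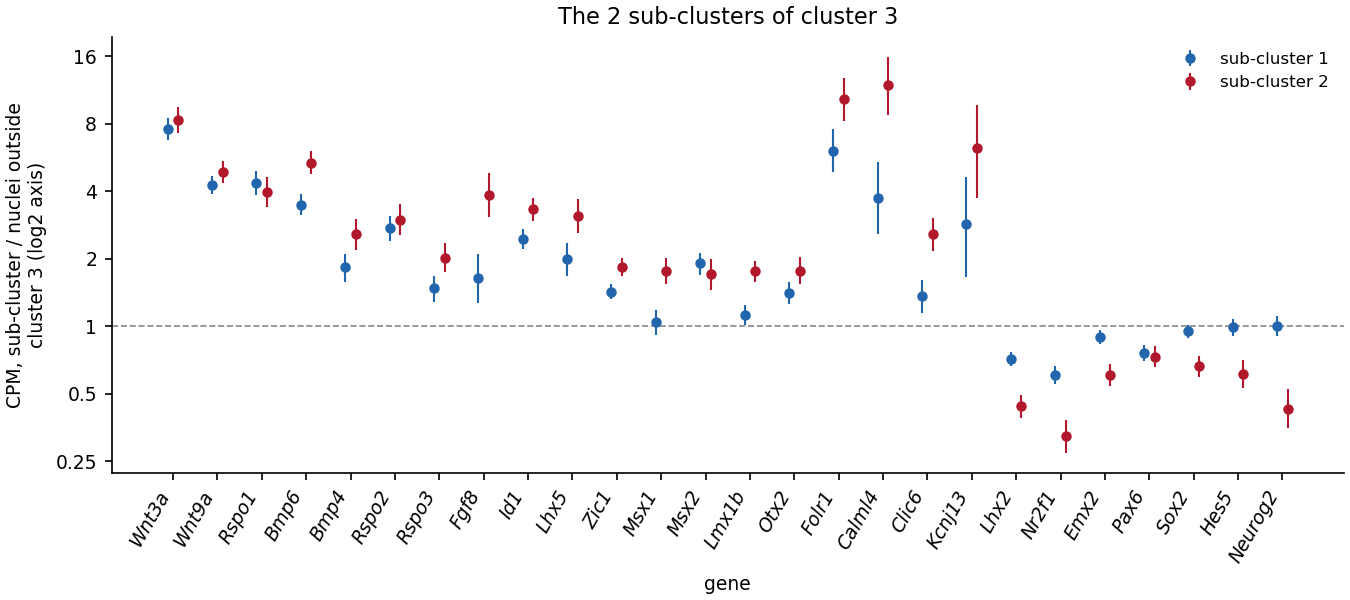
Ratio of CPM (log2 axis) of each sub-cluster of cluster 3 over all nuclei outside that cluster, with 95% counting intervals, for genes of the rule, hem signals, roof plate factors, choroid plexus markers, cortical selectors and progenitor genes. Wnt3a differs little between them (sub-cluster 2 at 8.29), and Lmx1a and Wnt8b of the rule are not shown. Calml4 reaches 11.9 in sub-cluster 2, and Neurog2 stands at 0.428 there.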

How the data were processed

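For each library the authors deposited peaks and 2 matrices of unnormalized counts by nucleus, for peaks and for motifs, made with Cell Ranger ATAC 1.2.0 on GRCm38 (mm10) according to the submitters' processing notes. The aligner and the rule that kept nuclei are not given in the sources used here. Counts are cut sites, mostly even (5.31% of entries were odd in the library labelled E14.5). Odd entries were 9.54% to 10.4% in the libraries labelled replicate 1 and 5.17% to 5.85% in those labelled replicate 2, so the 2 cortical libraries also differed in this. Peaks differed between libraries, so each was analysed on its own peaks. The library labelled E14.5 had 90206914 counts in 167718 peaks, and the 8 libraries had 77387940 to 138873845.

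Gene counts were sums over peaks overlapping a protein-coding gene of GENCODE M21 or its 2000 bp upstream, and genes can share peaks. Ratios are CPM in members over CPM in other nuclei, with a fold of 1.5. The expected count was the count over all nuclei, members included, times the members' share of all counts. Features high in the members therefore reached the minimum more easily. The text names the genes of fixed lists, the 12 highest and 8 lowest genes, the 8 highest and 4 lowest peaks, and the 8 highest and lowest motifs. Some genes, motifs and regions under these rules are not reported here, and the lists were counted without them. The members and lists were chosen with earlier results of these data known. Clusters came from 30 latent components without the first, 20 neighbours and Leiden resolution 0.5 (scikit-learn 1.9.0, leidenalg 0.10.2). List values by cluster used genes with an expected count of at least 20. No doublet caller was run. The ratio code was tested on simulated data. edgeR 4.0.16 was used only for TMM scaling, as an alternative.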

Additional observations from a re-analysis of the deposited data

Results flagged for a closer look

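For 11 genes of the lists the ratio lay on opposite sides of 1 in the hem-like nuclei and in the nuclei chosen by the same rule from CTX_E12.5 replicate 1, with both counting intervals excluding 1. The difference between the libraries was not tested, and each library has its own peaks and its own labelled age. The nuclei chosen from CTX_E12.5 replicate 1 need not be of a like kind. At each gene left out of the score there, the ratio lay between 0.739 and 1.21, with an interval that included 1. Reln had 1.52 in the library labelled E14.5 and 0.894 in the other, and Slc17a6, a vesicular glutamate transporter, had 1.29 and 0.808. The other 9 were lower in the hem-like nuclei and higher in the other library. Pax6 had 0.732 and 1.17, Nrg1 0.594 and 1.06, Lef1 0.747 and 1.11, and Lgr6, an R-spondin receptor, 0.710 and 1.30. Among progenitor genes Notch1 had 0.798 and 1.12, Hes5 0.881 and 1.15, and Sox2 0.914 and 1.11. Tcf7l1 had 0.866 and 1.09, and Ror2 0.829 and 1.09.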

How the results depend on the processing

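The median log2 ratios of the hem signals (0.53 to 0.77), roof plate factors (0.24 to 0.44), cortical selectors (-0.38 to -0.13) and choroid plexus markers (0.46 to 0.92), and the median ratio of the left-out gene (2.93 to 4.17), kept their direction under every alternative run. In the main setting, intervals of these list medians, taken from the ranked genes of each list, all included 0. In the same order they were -0.085 to 1.45, -0.115 to 0.70, -1.04 to 0.46 and -0.30 to 2.56. The counts of features past a threshold moved most, and the cause was not tested. With the top 4% as members, 702 peaks were higher and 2725 lower, and the flank ratio was 1.34. With the top 2%, 320 genes and 172 peaks were higher and 942 peaks lower, the flank ratio was 1.38, and 22 motifs reached 1.1 and 39 fell to 0.9. Fewer members leave fewer peaks with the minimum count. Thinned to 5000 counts, where 261 of the 384 members were shared with the original choice, 347 genes were lower, the flank ratio was 1.22, and 4 and 2 motifs passed. Within 4 bins of depth the flank ratio was 1.22, and 6 and 7 motifs passed. Lhx2, Smad9, Reln, Zic1 and Tgfa were past the fold in neither of these depth settings. Wnt2b, Wnt2, Bmpr1b, Dmrta1, Nrg1 and Rspo3 were not past it when thinned. A minimum of 10000 counts left 12 motifs at 0.9 or less. Without Wnt3a in the score 7 and 13 motifs passed, without Wnt9a 7 and 10, and without Lmx1a 8 were at 0.9 or less. Start site peaks alone gave 273 higher genes, and Wnt2 reversed to 1.17. Without a count minimum 1228 genes were higher and 1141 lower. At resolution 1.0 the leading cluster held 61.2% of members. Alternatives for peaks, for the left-out gene and with cluster 3 as members were chosen after seeing the data. No paired analysis was possible because the comparison lies within 1 library.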
